A study of Rattus norvegicus with 9 samples.

Results

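The translation initiation and elongation factors are the proteins that bring ribosomes to an mRNA, place them on the start codon and move them along the coding sequence. They were taken as every probe set of the array whose single gene symbol begins with Eif or Eef, or is Paip1 or Paip2, without Eif4ebp1. This gave 97 of 31042 probe sets, for 62 genes, and the choice used no measured value. Of them, 93 probe sets passed the filter on low signal, among them the brightest probe set of each of the 62 genes. The 4 that did not pass were dimmer probe sets of Eef2, Eef2k, Eif3h and Eif4g3. Pabpc1, Eif1, Eif3e and Eif5 have no probe set with that symbol alone here and were not analysed here.

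Gastrocnemius, a calf muscle made mostly of fast fibres, was profiled in 9 male Wistar rats of 250 g, 3 per group, with 1 array per animal. The groups received dexamethasone with testosterone, dexamethasone alone, or the vehicle propylene glycol, each for 7 days from an implanted Alzet pump. Dexamethasone, a synthetic glucocorticoid, was given at 0.7 mg/kg/day in both hormone groups. The testosterone dose is 28 mg/kg/day in the sample labels and 20 mg/kg/day in the series design, and which holds was not settled here. No group received testosterone alone. Values are log2(intensity + 16) after quantile normalization, called log2 signal below. Differences between groups are on that scale, where the added 16 compresses those of weak probe sets. P-values come from limma, adjusted by Benjamini-Hochberg over all 18625 probe sets tested in a comparison, with a threshold of 0.05, and describe the spread between animals. Whole muscle was used, so fewer cells of a type and less RNA per cell cannot be told apart.

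Initiation in eukaryotes starts when eIF4F (the cap-binding protein eIF4E, the scaffold eIF4G and the helicase eIF4A) binds the 5′ cap and, through poly(A)-binding protein, the tail of the mRNA. eIF2 delivers the initiator tRNA in its GTP-bound form, eIF2B reloads it with GTP, and eIF3 holds the assembly on the small ribosomal subunit. In elongation, eEF1A brings each aminoacyl-tRNA and eEF2 moves the ribosome by a codon. In skeletal muscle, glucocorticoids are known to lower protein synthesis, largely through signalling to eIF4E-binding proteins and eIF4G, and androgens are known as anabolic.

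Many mRNAs of the translation machinery begin with a C followed by a run of pyrimidines, the 5′ terminal oligopyrimidine (TOP) tract, through which mTORC1 controls their translation. Start regions of 58 of the 62 genes were matched in RefSeq (GRCr8). A C followed by at least 4 pyrimidines, within 5 bases of the annotated start, was found in 15 of these 58 (25.9%), against 4656 of 27457 rat promoters (17%). Runs further from the annotated start were not counted, so the genes without a run can include some with a TOP tract. Eef2, counted without a run, has ctcttcc further upstream. The windows below run from 10 bases before the annotated start to 20 bases from it, 5′ to 3′ on the gene's strand, with the TOP-like run in capitals. They are shown for Eef1a1, the elongation gene with the largest difference between the hormone groups, for Eef1b2 and Eif3f with long runs, for Eif2a and Eif2s3, which were among the higher genes under dexamethasone, and for Paip1 and Eif4g3, the genes past the threshold, which have no such run.

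Eef1a1: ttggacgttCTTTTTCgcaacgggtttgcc
Eef1b2: ggccggtcccggCCCTTTTTCTCCCTCagc
Eif3f: cccttccgttctagCCTCTCTCTTTCTCgg
Eif2a: gcatgggtttCTCTTTCCgggacaagatgg
Eif2s3: cagccgagcattttCCTTTTCTCTCTgagc
Paip1: cagacaaccgggcagagggagggctgcgtc
Eif4g3: cggccgtcctgccggactgctggaggcggc

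These windows lie at chr8:88225050-88225079, minus strand (Eef1a1), chr9:72074081-72074110, plus strand (Eef1b2), chr1:172369052-172369081, plus strand (Eif3f), chr2:144911350-144911379, plus strand (Eif2a), chrX:62933680-62933709, minus strand (Eif2s3), chr2:53255906-53255935, plus strand (Paip1) and chr5:155481368-155481397, plus strand (Eif4g3). The run of Eef1a1 has 7 bases, that of Eif2a 8, that of Eif2s3 12, that of Eif3f 14 and that of Eef1b2 15. The 15 genes with such a run had a median dexamethasone minus vehicle difference of 0.07, with 12 above 0. The 43 without had a median of 0.13, with 33 above 0. Under both hormones minus dexamethasone the medians were -0.06 with the run, where 3 of 15 lay above 0, and -0.12 without it, where 14 of 43 did.

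Over the 7 days, dexamethasone moved only a few of these genes past the threshold. Eif4g3 rose and Paip1 fell against vehicle. Adding testosterone to dexamethasone raised Paip1 again, and no member differed at the threshold between animals given both hormones and vehicle animals. The other factors did not pass, although not all of their differences were small. Eif4e3 had the largest difference of the 62 genes under dexamethasone (-1.68) without passing. That rank did not hold with batch as a block, where Eif4e3 was at -1.34, Paip1 at -1.45 and Eif4g3 at 1.42. Of the 62 genes, 47 had a higher mean under dexamethasone than in vehicle animals, and 19 had a higher mean with both hormones than with dexamethasone alone. The 2 comparisons share the dexamethasone arrays, so a high or low dexamethasone array moves them in opposite directions.

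In dexamethasone against vehicle, 1 of 93 member probe sets was past the threshold and higher, where 0.569% of all probe sets tested were, and 1 was lower, where 0.483% were. All 3 dexamethasone animals lay above all 3 vehicle animals for 19 members (20.4%), against 12.5% of all probe sets, and below them for 9 (9.68%), against 10.4%. An unadjusted p under 0.05 was reached by 13 members (14%), against 15.5% of all. The median difference of the members was 0.07, with 60 of 93 above 0 (64.5%), and that of all probe sets tested was 0.01, with 51.2% above 0. With batch as a block the members' median was 0.16, and without dexamethasone replicate 3 it was 0.17. By gene, 47 of 62 lay above 0, from -1.68 for Eif4e3 to 1.48 for Eif4g3. The median size of a difference, regardless of sign, was 0.22 for the members and 0.28 for all probe sets.

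In both hormones against dexamethasone, 1 member was past the threshold and higher (0.0698% of all probe sets) and 0 were lower (0.043% of all), by limma. Animals given both hormones lay above all dexamethasone animals for 5 members (5.38%), against 7.24% of all probe sets, and below them for 14 (15.1%), against 7.35%. An unadjusted p under 0.05 was reached by 12 members (12.9%), against 11% of all. The median was -0.08 for the members, with 33 of 93 above 0 (35.5%), and -0.001 for all probe sets, with 49.9% above 0.

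In both hormones against vehicle, limma called 0 members higher (0% of all probe sets) and 0 lower (0% of all), and 3 members (3.23%) had an unadjusted p under 0.05, against 6.12% of all. The groups did not overlap for 7 members on the higher side (7.53%, and 7.53% of all) and 7 on the lower side (7.53%, against 5.79% of all). The median was 0.02 for the members and 0.02 for all probe sets.

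**Figure D1:**
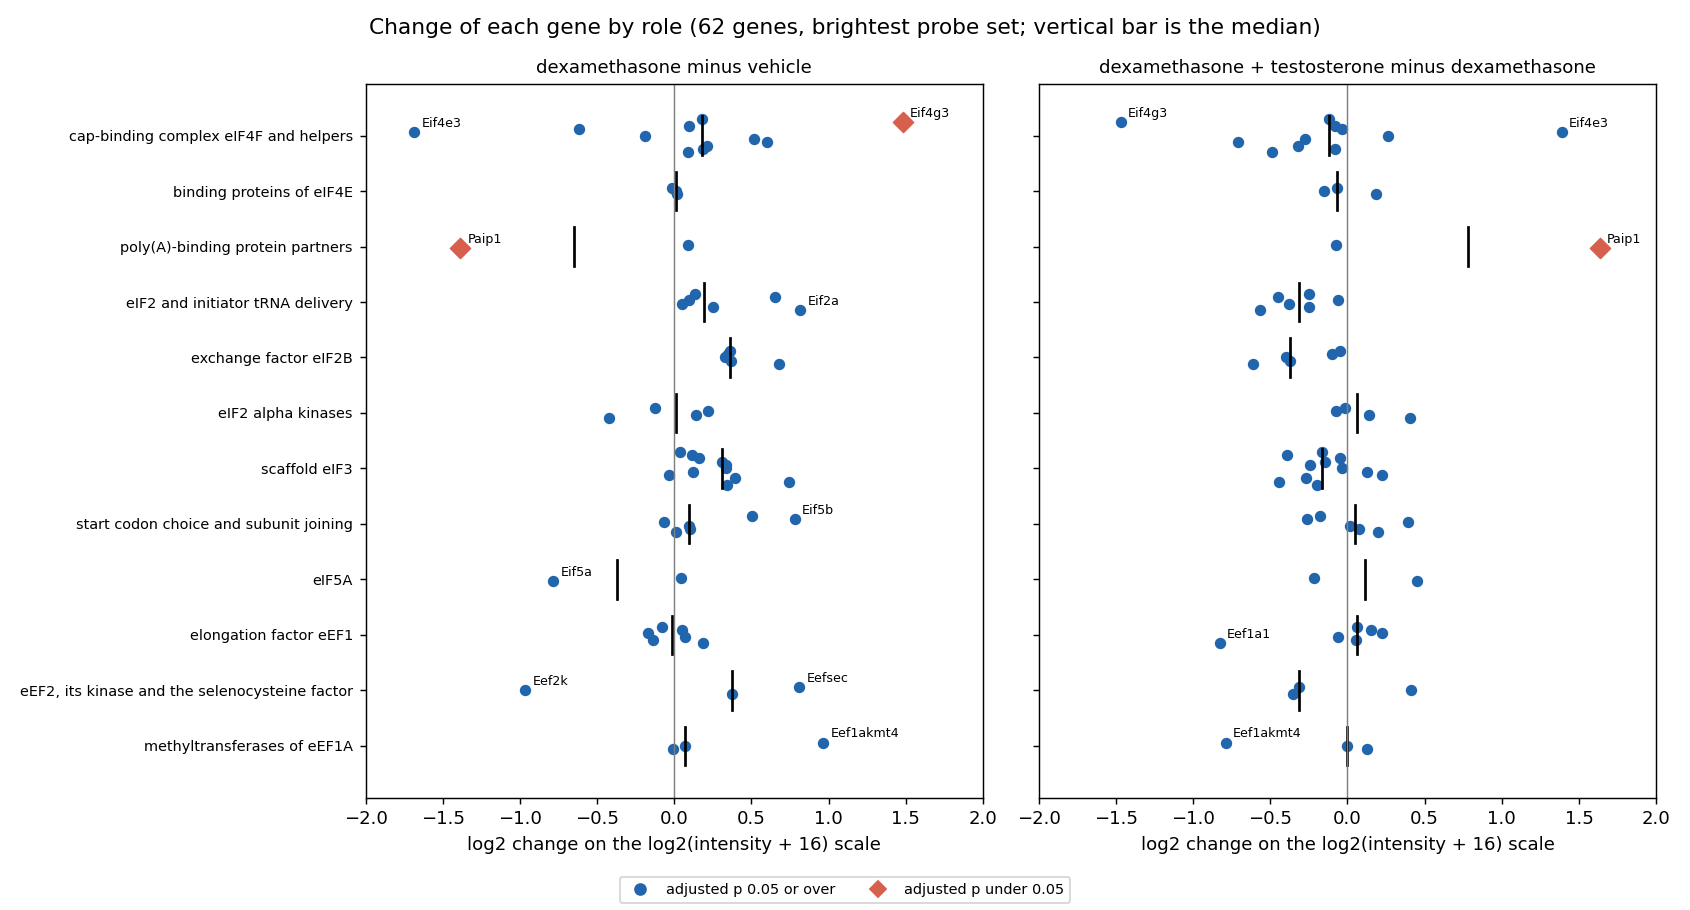
Difference of each of the 62 genes on the log2 scale, by role (rows), for dexamethasone minus vehicle (left) and both hormones minus dexamethasone (right); each point is a gene's brightest probe set, diamonds are past an adjusted p of 0.05, and vertical bars are medians of a role. Eif4g3 (1.48) and Paip1 (-1.39) are the diamonds on the left and Paip1 (1.64) the one on the right, and all 5 eIF2B genes lie to the right of 0 on the left and to the left of 0 on the right.

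A technical split runs through the arrays and was noticed in their values. As deposited, vehicle replicates 1 and 3 and replicate 1 of both hormone groups (batch A) were on a lower scale than the other 5 arrays, which are replicate 2 of each group (batch B) and replicate 3 of both hormone groups (batch C). The 3′ to 5′ signal ratio of the Gapdh control, a measure of RNA quality, was 6.22 in replicate 3 of both hormones and 4.94 in replicate 3 of dexamethasone, against 1.06 to 1.17 in the other 7 arrays. In these 2 arrays 19 of 93 member probe sets (20.4%) read below all 7 others, where 9.36% of all probe sets did, 6 of them by more than 1 log2 unit. Of the 31 members that were not their gene's brightest probe set, 11 did so. The dimmer probe sets of Eif3c, Eif3l, Eif4g1, Eif3a and Eif4g2 stood at log2 differences of -4.61, -3.34, -3.31, -2.83 and -2.71 between these 2 arrays and the other 4 hormone arrays. Batch C holds no vehicle array. Dexamethasone against vehicle is therefore also given within batches A and B for Paip1, Eif4g3 and Eif5a, and within batch B for Eif4g1. The 12 muscle fibre markers gave summed log2 signals of 18.06 to 18.28 with both hormones, 18.20 to 18.22 with dexamethasone and 18.26 to 18.30 with vehicle. Replicate 1 of both hormones stood apart on 2 of them. The slow fibre myosin Myh7 read 8.74 in it, against 14.14 to 14.96 in the other 8 arrays, and Myh2, the myosin of fast oxidative fibres, 12.71, against 14.22 to 14.78. The other 10 markers lay above 12.8 in every array. The values of Paip1, eIF2B, eIF3 and the eIF4E-binding proteins with both hormones are also given without this array.

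**Figure D2:**
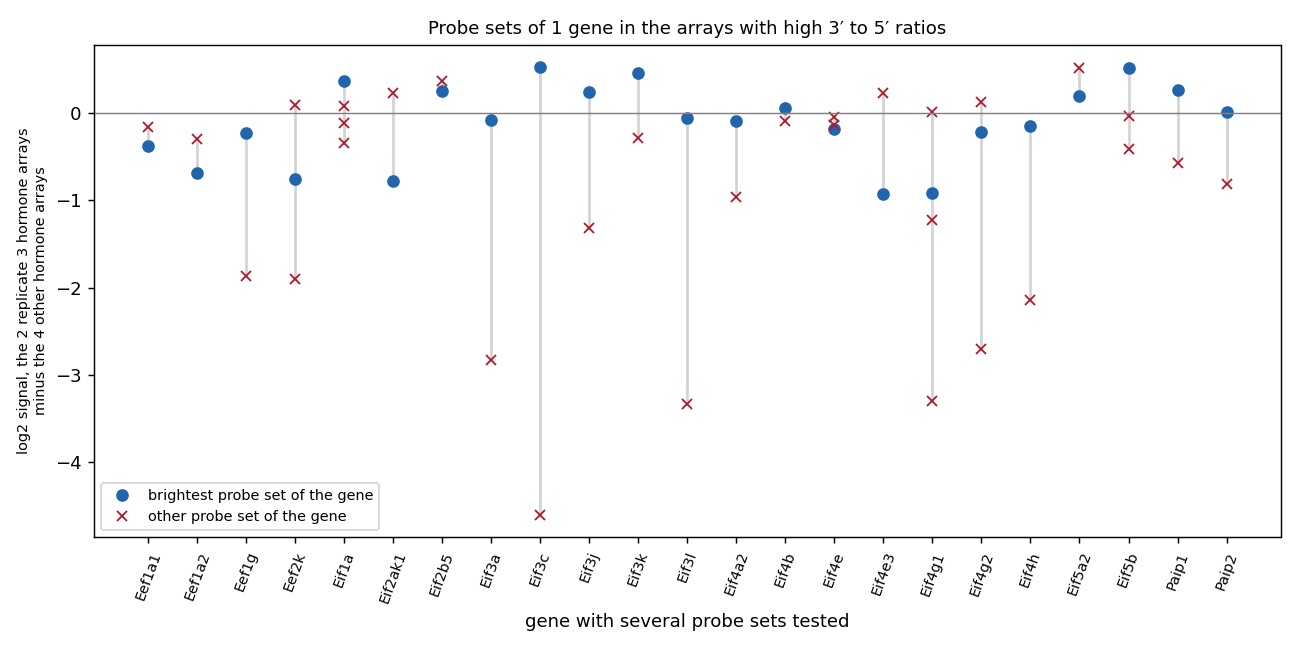
For each gene with several probe sets tested, the log2 signal in the 2 replicate 3 hormone arrays minus that in the other 4 hormone arrays (vertical axis); circles are the brightest probe set of a gene and crosses its others, joined by a grey line. The circles stay above -1, and crosses reach -4.61 for Eif3c.

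The protein Paip1 binds poly(A)-binding protein together with eIF4A and eIF3 and stimulates translation, whereas Paip2 displaces poly(A)-binding protein from the tail and represses it. The brighter Paip1 probe set read 10.23, 10.19 and 10.43 in the animals given both hormones, 8.77, 8.31 and 8.87 in the dexamethasone animals and 9.93, 10.01 and 10.16 in the vehicle animals. All 3 dexamethasone animals were more than 1 log2 unit below every other animal, and the both-hormone animals lay just above the vehicle animals without overlap. Paip1 fell by 1.39 ± 0.20 (SE) under dexamethasone against vehicle, 2.62-fold lower (adjusted p = 0.0230). With both hormones it was 3.11-fold higher than with dexamethasone (1.64 ± 0.20, adjusted p = 0.0360), and the difference from vehicle was 0.25 (adjusted p = 0.898).

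Within batches the dexamethasone minus vehicle difference of Paip1 was -1.28 in batch A and -1.70 in batch B. Both hormones minus dexamethasone gave 1.46, 1.88 and 1.56 in batches A, B and C. The dimmer Paip1 probe set had the same signs without passing, at -1.09 (adjusted p = 0.398) and 1.75 (adjusted p = 0.293), and 1 animal given both hormones stood at 10.64 on it, the other 2 at 8.24 and 8.48. The fall passed in 12 of 21 alternative settings and was lost by limma without vehicle replicate 1, 2 or 3 (adjusted p = 0.0922, 0.0967 and 0.133), dexamethasone replicate 1 or 2 (0.0804 and 0.0616) or replicate 2 of both hormones (0.0560), and when both Paip1 probe sets were averaged (-1.24, adjusted p = 0.0810), with no filter (0.0588) and with the replicate block (0.0578). The rise with testosterone passed in 7 of 21 and was lost when both probe sets were averaged (1.69, adjusted p = 0.0596), and of the single arrays only dexamethasone replicate 3 could be left out with the call kept (adjusted p = 0.0292). Leaving out another array gave adjusted p-values of 0.0800 to 0.137, with 1.66 (adjusted p = 0.128) without replicate 1 of both hormones.

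Paip2 showed no comparable difference. Its brighter probe set read 12.87, 12.57 and 12.80 in the animals given both hormones, 13.08, 12.58 and 12.79 in the dexamethasone animals and 12.71, 12.71 and 12.76 in the vehicle animals, with overlap between all groups. The dexamethasone minus vehicle difference was 0.09 ± 0.19 (adjusted p = 0.856) and that of both hormones minus dexamethasone -0.07 (adjusted p = 0.943).

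The 11 genes grouped as eIF4F and its helpers include relatives of its subunits (Eif4a3, Eif4e2, Eif4e3 and Eif4g2). Of the 11 genes, 1 rose under dexamethasone and 8 lay above 0. With testosterone added 2 of 11 lay above dexamethasone alone (4 of 11 with trimmed-mean scaling). Eif4g3 encodes the eIF4G paralogue that, like Eif4g1, ties the cap-binding protein to the helicase and to poly(A)-binding protein. Its probe set read 10.29, 10.37 and 11.06 in the animals given both hormones, 12.31, 11.80 and 12.01 in the dexamethasone animals and 10.75, 10.25 and 10.68 in the vehicle animals. Every dexamethasone animal was above every other animal, and the remaining groups overlapped. Eif4g3 rose 2.79-fold against vehicle (1.48 ± 0.26, adjusted p = 0.0386). Both hormones minus dexamethasone was -1.47 ± 0.26 (adjusted p = 0.0852), which did not pass, and both hormones minus vehicle was 0.01. Within batches the differences from vehicle were 1.60 and 1.55, and those with testosterone added were -2.03, -1.43 and -0.95. The rise passed in 9 of 21 alternative settings. With batch as a block it missed the threshold (adjusted p = 0.0507), as it did when any vehicle or dexamethasone array or replicate 2 of both hormones was left out (0.0566 to 0.154).

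Eif4g1, the main scaffold, differed in the other direction, with -0.62 ± 0.37 against vehicle (adjusted p = 0.473). It read 9.98, 10.45 and 9.39 in the animals given both hormones, 9.89, 10.74 and 9.31 in the dexamethasone animals and 10.69, 10.53 and 10.58 in the vehicle animals. The spread among hormone animals exceeded 1 log2 unit, the replicate 3 arrays were the lowest of their groups, and the difference within the replicate 2 arrays was 0.20. Both hormones minus vehicle was -0.66 (adjusted p = 0.843), with all 3 below vehicle. Its 3 dimmer probe sets gave -0.89, -2.06 and 0.02 for dexamethasone minus vehicle, so they disagree in sign. Eif4g2, a relative that lacks the eIF4E-binding region, stood at 0.10 (adjusted p = 0.827).

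The cap-binding proteins themselves did not move as a group. Eif4e, the canonical one, read 11.84, 11.80 and 11.82 in the animals given both hormones, 12.06, 12.37 and 11.85 in the dexamethasone animals and 11.57, 11.57 and 11.59 in the vehicle animals. The 3 groups did not overlap, dexamethasone being highest and vehicle lowest. Dexamethasone minus vehicle was 0.52 ± 0.18 (adjusted p = 0.217) and both hormones minus vehicle 0.24 (adjusted p = 0.887). These values are of its brightest probe set, and its dimmer ones had mean log2 signals of 6.59 and 6.28. On the first, as deposited, dexamethasone replicate 1 read 32.3 against 55.7 in vehicle replicate 1, and replicate 2 193.5 against 147. On the second the same arrays read 50.8 against 19.8 and 243.5 against 27.5. These deposited values are not on a common scale. Trimmed means were 204.7 in dexamethasone replicate 1 and 139.5 in vehicle replicate 1, and 491.2 and 490.9 in their replicates 2. Eif4e3, a divergent family member with weaker cap binding, ran the other way. Its brighter probe set read 10.65, 10.58 and 9.79 in the animals given both hormones, 9.19, 9.40 and 8.26 in the dexamethasone animals and 10.93, 10.19 and 10.78 in the vehicle animals, and its dimmer one 10.29, 9.90 and 10.17 in the animals given both hormones, 8.74, 9.17 and 9.35 in the dexamethasone animals and 10.23, 10.06 and 10.26 in the vehicle animals. On both probe sets the dexamethasone animals were below all others, and the other 2 groups overlapped. The differences from vehicle were -1.68 ± 0.36 (adjusted p = 0.0662) and -1.10 ± 0.21 (adjusted p = 0.0508), neither past the threshold. On the brighter set dexamethasone replicate 3, an array with a high 3′ to 5′ ratio, was the lowest. With batch as a block that set gave -1.34. With testosterone added they were 1.39 (adjusted p = 0.187) and 1.03 (adjusted p = 0.104). Averaged over both probe sets, Eif4e3 passed against vehicle (-1.39, adjusted p = 0.0230). Of the 20 alternatives that kept the probe sets apart, the brighter set passed in 4 and the dimmer in 6. Eif4e2, a cap-binding protein known for repressing mRNAs, was -0.19 against vehicle without overlap and 0.26 with testosterone added, without overlap either (adjusted p = 0.661 and adjusted p = 0.670).

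The helicases did not pass against vehicle. Eif4a1 was at 0.09 (adjusted p = 0.952) and Eif4a2 at 0.19 (adjusted p = 0.664), both with overlap. The Eif4a1 animals spread widely, vehicle from -0.61 to 0.60 around the vehicle mean and dexamethasone at 0.35, 0.56 and -0.65 from it. Its difference ran from -0.22 to 0.46 in the alternatives. With testosterone added Eif4a1 was at -0.49 (adjusted p = 0.777). Both replicate 3 hormone arrays read below all others on it. Eif4a3, a part of the exon junction complex, was at 0.21 without overlap. Eif4b, which stimulates the helicase, read 10.66, 11.02 and 10.52 in the animals given both hormones, 11.07, 11.52 and 11.74 in the dexamethasone animals and 11.02, 11.11 and 10.41 in the vehicle animals. The dexamethasone animals were above the animals given both hormones, and vehicle animals overlapped with both groups. The brighter set gave 0.60 against vehicle (adjusted p = 0.325) and -0.71 with testosterone added (adjusted p = 0.374). Eif4h, a relative of Eif4b, was at 0.18 against vehicle and -0.12 with testosterone added.

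The eIF4E-binding proteins that remain without Eif4ebp1 lay within 0.02 of vehicle under dexamethasone (median 0.01, and 0.14 without the batch C arrays). Eif4ebp2, which blocks eIF4E from eIF4G when hypophosphorylated, was at 0.02 ± 0.32 (adjusted p = 0.986), Eif4ebp3 at 0.01 and the eIF4E transporter Eif4enif1 at -0.01. With testosterone added they were at 0.18, -0.15 and -0.07, none past the threshold, and animals of all 3 groups overlapped. All 3 lay above dexamethasone alone (median 0.04) when replicate 1 of both hormones was left out. Eif4ebp2 read 11.39, 11.44 and 10.38 in the animals given both hormones and 11.03, 11.27 and 10.37 in the dexamethasone animals, the replicate 3 array being the lowest in each. Eif4ebp1, not counted here, gave 2.47 ± 0.38 against vehicle (adjusted p = 0.0306).

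**Figure D3:**
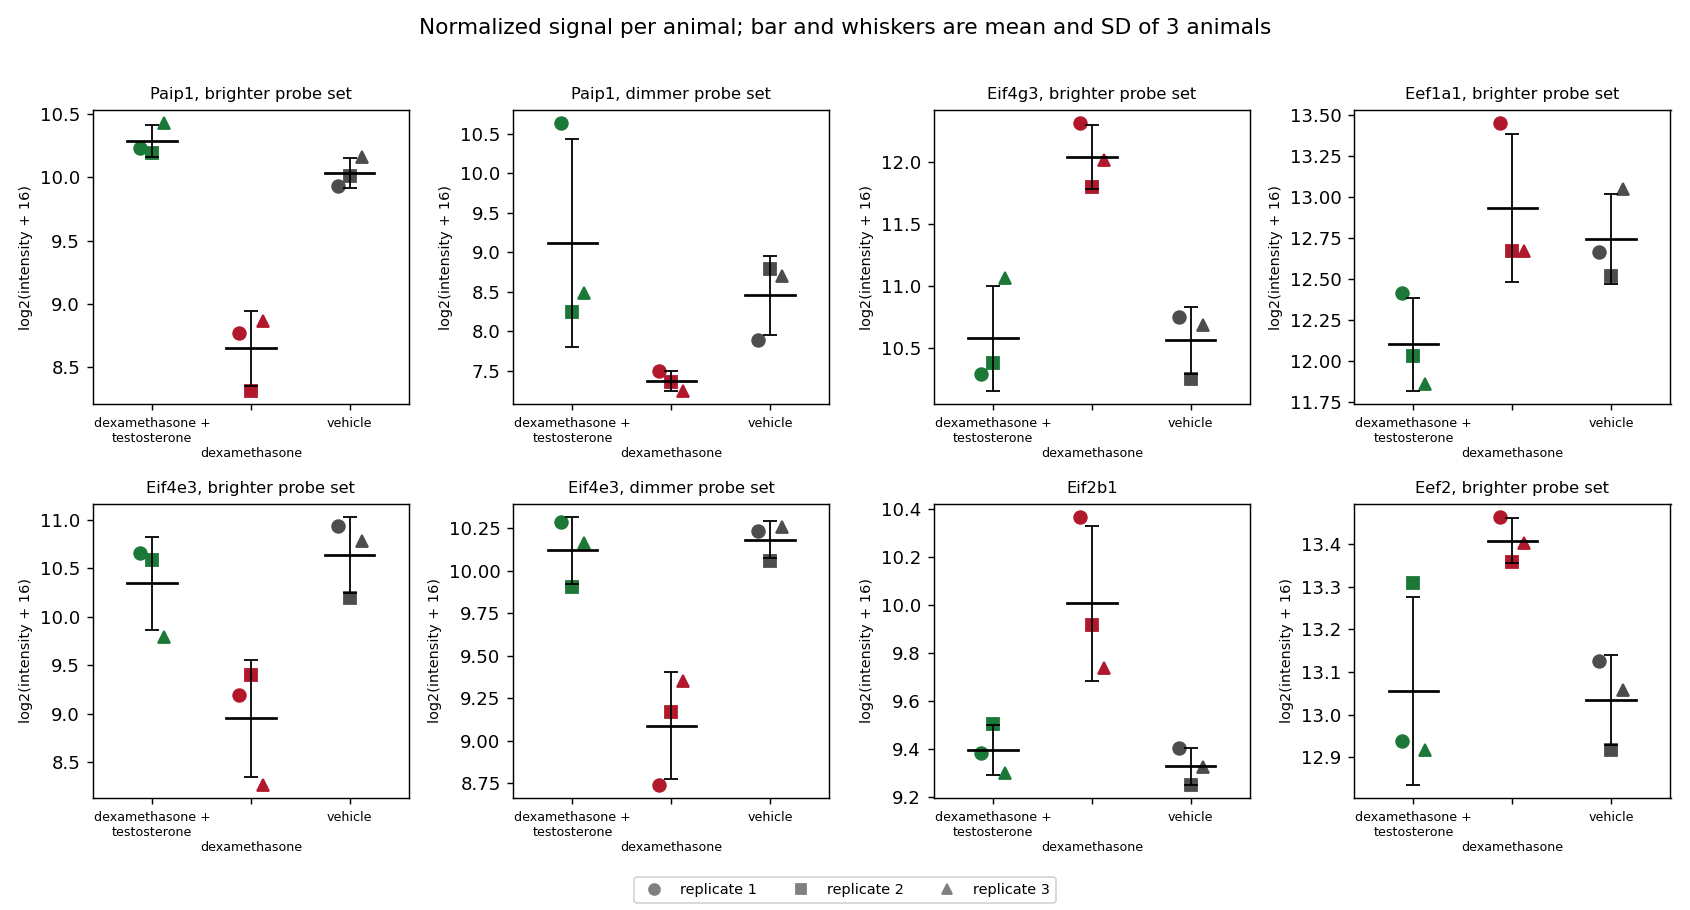
Log2 signal (vertical axis, log2(intensity + 16)) of 8 probe sets in each animal, by group; symbols mark the replicate number, and the bar and whiskers are the mean and SD of 3 animals. The dexamethasone animals are the lowest for both probe sets of Paip1 and of Eif4e3 and the highest for Eif4g3, Eif2b1 and Eef2, and for Eef1a1 the animals given both hormones are the lowest.

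All 6 genes of eIF2 and initiator tRNA delivery lay above vehicle under dexamethasone (median 0.19). The sign of Eif2s1 against vehicle changed in 2 of 21 alternatives (lowest -0.06). When testosterone was added all 6 lay below dexamethasone alone (median -0.31, and 5 of 6 below with trimmed-mean scaling). In either comparison 0 were past the threshold by limma. Eif2a encodes a separate initiator tRNA-binding protein that is not a subunit of eIF2. It read 10.01, 9.97 and 10.85 in the animals given both hormones, 10.74, 10.79 and 10.998 in the dexamethasone animals and 10.11, 9.89 and 10.07 in the vehicle animals. The dexamethasone animals were above all vehicle animals, and replicate 3 of both hormones reached the dexamethasone range. Its differences were 0.82 ± 0.25 (adjusted p = 0.160) and -0.57 (adjusted p = 0.457).

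Eif2s3, the gamma subunit that holds GTP and the tRNA, read 9.19, 9.16 and 9.26 in the animals given both hormones, 9.89, 9.39 and 9.68 in the dexamethasone animals and 8.91, 9.10 and 8.99 in the vehicle animals. The 3 groups did not overlap, dexamethasone being highest and vehicle lowest. The differences were 0.65 ± 0.18 against vehicle (adjusted p = 0.130), -0.45 with testosterone added (adjusted p = 0.414) and 0.20 between both hormones and vehicle (adjusted p = 0.900). Eif2s1, the alpha subunit that stress kinases phosphorylate, was at 0.05 (adjusted p = 0.959) and -0.38 (adjusted p = 0.715), with overlap. Its replicates 1, 2 and 3 of both hormones stood at 0.22, -0.26 and -0.95 from the vehicle mean. Eif2s2 (beta subunit), Eif2s3y (the Y-linked copy of gamma) and Eif2d (a tRNA-binding factor) ranged from 0.09 to 0.25 against vehicle.

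The subunits of the exchange factor eIF2B shared their signs. All 5 lay above vehicle under dexamethasone (0.33 to 0.68, median 0.36), 4 of them without overlap (12.5% of all probe sets), and all 5 below dexamethasone alone with testosterone added (-0.61 to -0.05, median -0.37), 2 without overlap (7.35% of all). None passed the threshold. The signs against vehicle held for all 5 with trimmed-mean scaling, cyclic loess, batch as a block and each array left out. With testosterone added, 1 of 5 lay above dexamethasone alone when replicate 1 of both hormones was left out (Eif2b5, 0.11). Eif2b1, the alpha subunit, read 9.38, 9.50 and 9.30 in the animals given both hormones, 10.37, 9.92 and 9.74 in the dexamethasone animals and 9.40, 9.25 and 9.32 in the vehicle animals. The dexamethasone animals were above all others, and the other 2 groups overlapped. The differences were 0.68 ± 0.20 (adjusted p = 0.147) and -0.61 ± 0.20 (adjusted p = 0.306). Eif2b5, the catalytic epsilon subunit, read 8.76, 9.14 and 9.37 in the animals given both hormones, 9.08, 9.14 and 9.21 in the dexamethasone animals and 8.81, 8.82 and 8.71 in the vehicle animals. It was above vehicle under dexamethasone by 0.36 without overlap (adjusted p = 0.421), and it changed least with testosterone added (-0.05, adjusted p = 0.962). Eif2b2, Eif2b3 and Eif2b4 gave 0.37, 0.33 and 0.35 against vehicle and -0.37, -0.40 and -0.10 with testosterone added.

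The 4 kinases that phosphorylate eIF2 alpha showed no shared direction (median 0.01 against vehicle, -0.17 with trimmed-mean scaling, -0.02 with cyclic loess and -0.10 with batch as a block). Eif2ak2, activated by double-stranded RNA, was at 0.14 (adjusted p = 0.826), and Eif2ak3, activated by unfolded protein in the endoplasmic reticulum, at 0.22 (adjusted p = 0.774). Eif2ak4, activated by uncharged tRNA, was at -0.12 (adjusted p = 0.910) and Eif2ak1, controlled by haem, at -0.42 (adjusted p = 0.562). For Eif2ak1 dexamethasone replicates 1, 2 and 3 stood at 0.09, -0.22 and -1.13 from the vehicle mean. Both replicate 3 hormone arrays read below all others on it, and with batch as a block it was at -0.15. The groups overlapped for all 4 in each comparison. Eif2ak4 read lowest in the replicate 2 arrays of all groups, at 5.72, 5.74 and 6.02 (both hormones, dexamethasone, vehicle).

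Of the 11 eIF3 subunits, 10 lay above vehicle under dexamethasone (median 0.31), 4 of them without overlap (12.5% of all probe sets). With testosterone added 9 lay below dexamethasone alone (median -0.17), 8 of 11 with trimmed-mean scaling. Without replicate 1 of both hormones 4 of 11 lay above it (median -0.03). None passed in any comparison. These counts use the brightest probe set of each gene. Dimmer probe sets of Eif3a, Eif3c, Eif3j and Eif3l, not counted, read below all other arrays in both batch C arrays, by 1.49, 3.07, 0.27 and 2.61. With both hormones 9 of 11 lay above vehicle (median 0.14), 3 without overlap (7.53% of all), and without replicate 1 of both hormones the median was 0.28. Eif3b, a core subunit, had the largest difference. It read 10.31, 10.58 and 11.03 in the animals given both hormones, 11.26, 10.71 and 11.30 in the dexamethasone animals and 10.46, 10.32 and 10.26 in the vehicle animals. The dexamethasone animals were above all vehicle animals and overlapped with the both-hormone animals. Its differences were 0.74 ± 0.24 (adjusted p = 0.184) and -0.45 (adjusted p = 0.565).

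Eif3a, the large core scaffold, was at 0.34 ± 0.17 against vehicle without overlap (adjusted p = 0.392) and -0.20 with testosterone added. Eif3f, which is known in muscle as a target of the atrophy ubiquitin ligase MAFbx, was at 0.12 under dexamethasone (adjusted p = 0.818). It read 12.52, 12.74 and 12.50 in the animals given both hormones, 12.84, 12.36 and 12.19 in the dexamethasone animals and 12.39, 12.35 and 12.28 in the vehicle animals, so dexamethasone replicate 3 was the lowest of all and the both-hormone animals lay above vehicle (0.25, adjusted p = 0.900). Eif3l and Eif3m were the 2 subunits below vehicle with both hormones, Eif3m at -0.13 with overlap. Eif3l read 11.23, 11.23 and 11.10 in the animals given both hormones, 11.58, 11.56 and 11.59 in the dexamethasone animals and 11.54, 11.40 and 11.44 in the vehicle animals, and the both-hormone animals were below all others (-0.39 from dexamethasone, adjusted p = 0.409, and -0.27 from vehicle, adjusted p = 0.844). Eif3h was 0.34 above vehicle under dexamethasone with overlap and 0.30 above it with both hormones without overlap. The other subunits (Eif3c, Eif3d, Eif3i, Eif3j, Eif3k and Eif3m) ranged from -0.03 for Eif3d to 0.39 for Eif3c against vehicle.

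**Figure D4:**
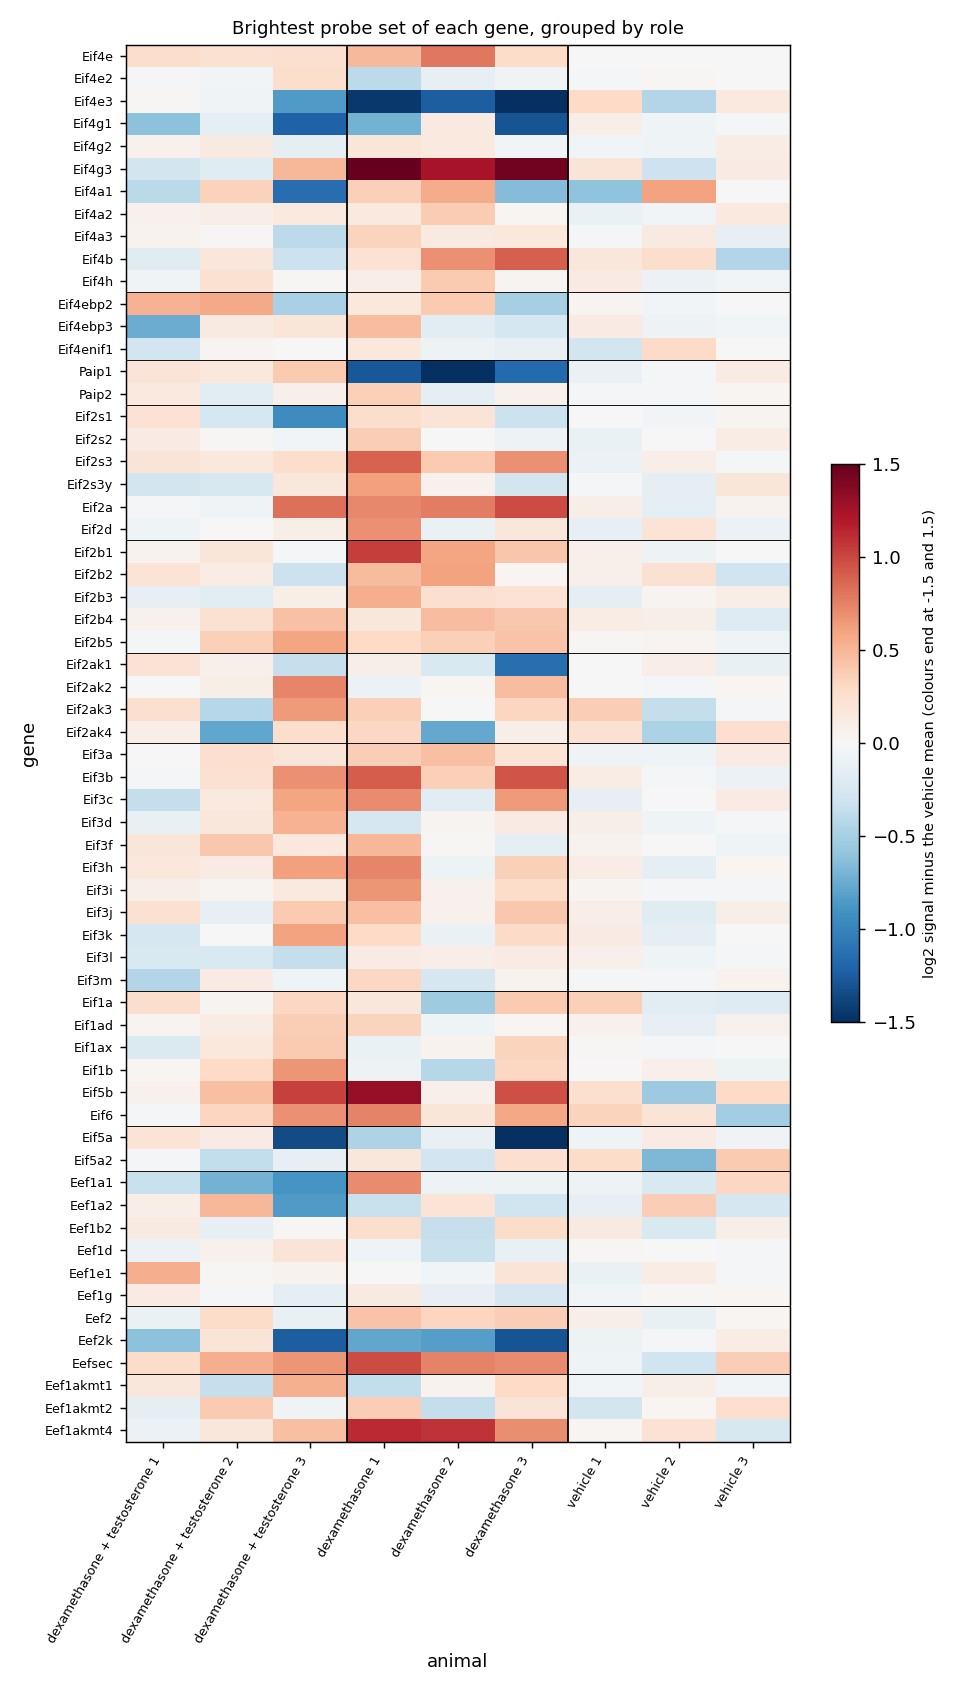
Log2 signal of the brightest probe set of each of the 62 genes (rows, grouped by role) in each of the 9 animals (columns), shown as the difference from the vehicle mean; colours end at -1.5 and 1.5. Eif4e3 and Paip1 are dark blue and Eif4g3 is dark red in the 3 dexamethasone columns. The eIF2B rows are above 0 there, at most in red, with Eif2b2 near 0 in replicate 3 (0.03) and Eif2b4 pale in replicate 1 (0.17). Eif5a is blue in the replicate 3 column of both hormone groups.

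For start codon choice and subunit joining the 6 genes ranged from -0.07 for Eif1b to 0.78 for Eif5b against vehicle, with overlap in all. Eif5b, the GTPase that joins the ribosomal subunits, read 10.32, 10.70 and 11.28 in the animals given both hormones, 11.55, 10.33 and 11.22 in the dexamethasone animals and 10.49, 9.70 and 10.55 in the vehicle animals, a spread of over 1 log2 unit among dexamethasone animals (adjusted p = 0.377). Eif6, which keeps the large subunit from joining too early, was at 0.50 (adjusted p = 0.453) and -0.18 with testosterone added (adjusted p = 0.897). Eif1a, Eif1ax and Eif1ad lay within 0.1 of vehicle under dexamethasone. With both hormones all 6 lay above vehicle (median 0.27), with overlap in all and 0 past the threshold by limma. With batch as a block 5 of 6 did.

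Eif5a, the hypusine-bearing factor that helps ribosomes through difficult peptide bonds, read 12.51, 12.43 and 10.96 in the animals given both hormones, 11.84, 12.20 and 10.52 in the dexamethasone animals and 12.24, 12.43 and 12.25 in the vehicle animals. The replicate 3 hormone arrays read lowest, and replicates 1 and 2 of both hormones read at or above the highest vehicle animal. Dexamethasone minus vehicle was -0.79 (adjusted p = 0.496), and -0.40 and -0.23 within batches A and B. The part of the high 3′ to 5′ ratios in this was not tested. Its paralogue Eif5a2 was at 0.04.

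Among the elongation genes, the tRNA-carrying factor Eef1a1 had the largest difference between the hormone groups. Its brighter probe set read 12.41, 12.03 and 11.86 in the animals given both hormones, 13.45, 12.67 and 12.67 in the dexamethasone animals and 12.66, 12.52 and 13.05 in the vehicle animals. Animals given both hormones were below all dexamethasone and all vehicle animals, and the dexamethasone animals overlapped with vehicle. Both hormones minus dexamethasone was -0.83 ± 0.27 (adjusted p = 0.306), -1.04, -0.64 and -0.81 within the 3 batches. Both hormones minus vehicle was -0.64 (adjusted p = 0.815). Its other probe set gave -0.99 (adjusted p = 0.171) and -0.69. The name of the brighter set marks it as able to bind similar transcripts, and related sequences cannot be told apart by it. Eef1a2, the isoform of adult muscle and neurons, was at -0.14 against vehicle (adjusted p = 0.886) and 0.06 with testosterone added (adjusted p = 0.977), with overlap.

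The eEF1B subunits, which reload eEF1A with GTP, were close to vehicle throughout. Eef1b2 was at 0.07 (adjusted p = 0.918) and -0.06 (adjusted p = 0.962), Eef1g at -0.08 (adjusted p = 0.874) and 0.06 (adjusted p = 0.946), for dexamethasone minus vehicle and for both hormones minus dexamethasone. Eef1d, the delta subunit, was at -0.17 against vehicle, without overlap, and Eef1e1, a component of the tRNA synthetase complex, at 0.05. Over the 6 eEF1 genes the median was -0.01 against vehicle, 3 of 6 above 0, and with batch as a block it was 0.04.

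Eef2, the translocase, read 12.94, 13.31 and 12.92 in the animals given both hormones, 13.46, 13.36 and 13.40 in the dexamethasone animals and 13.12, 12.92 and 13.06 in the vehicle animals. The dexamethasone animals were above all others, and the other 2 groups overlapped, at 0.37 ± 0.18 against vehicle (adjusted p = 0.364) and -0.35 with testosterone added (adjusted p = 0.529). Eef2k, the kinase that inactivates eEF2, read 9.87, 10.68 and 9.25 in the animals given both hormones, 9.71, 9.66 and 9.20 in the dexamethasone animals and 10.41, 10.46 and 10.60 in the vehicle animals on its brightest probe set, with dexamethasone animals below all vehicle animals (-0.97 ± 0.33, adjusted p = 0.204). Its other 2 probe sets tested gave 0.24 and -1.30, so the sets disagree in sign. In both replicate 3 hormone arrays the brightest and the dimmest set tested read below all other arrays, by 0.41 and 1.33. With batch as a block the brightest gave -0.75 against vehicle. Eefsec, which brings selenocysteine tRNA to the ribosome, read 8.38, 8.65 and 8.76 in the animals given both hormones, 9.08, 8.84 and 8.81 in the dexamethasone animals and 8.04, 7.80 and 8.46 in the vehicle animals. Dexamethasone animals were above all others, at 0.81 ± 0.22 against vehicle (adjusted p = 0.118) and -0.32 with testosterone added (adjusted p = 0.675).

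Of the 3 lysine methyltransferases of eEF1A, Eef1akmt4 differed. It read 6.83, 7.09 and 7.38 in the animals given both hormones, 8.04, 8.01 and 7.62 in the dexamethasone animals and 6.95, 7.14 and 6.68 in the vehicle animals. The dexamethasone animals were above all others, and the other 2 groups overlapped. The differences were 0.97 ± 0.22 (adjusted p = 0.0817) and -0.79 ± 0.22 (adjusted p = 0.224). It passed against vehicle only when the filter was set at the 60th percentile (adjusted p = 0.0413). Eef1akmt1 and Eef1akmt2 were at -0.01 and 0.07, with overlap.

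The upstream regions of the genes past the threshold are given because these genes moved in opposite directions under dexamethasone. The 250 bases before the annotated start are printed 5′ to 3′ on the gene's strand (RefSeq, GRCr8), with CG dinucleotides in capitals.

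Paip1: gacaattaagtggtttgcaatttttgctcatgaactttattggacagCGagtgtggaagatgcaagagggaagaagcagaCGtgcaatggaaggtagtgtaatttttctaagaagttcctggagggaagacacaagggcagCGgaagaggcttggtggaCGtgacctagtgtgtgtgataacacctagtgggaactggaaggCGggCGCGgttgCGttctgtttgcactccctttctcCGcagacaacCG
Eif4g3: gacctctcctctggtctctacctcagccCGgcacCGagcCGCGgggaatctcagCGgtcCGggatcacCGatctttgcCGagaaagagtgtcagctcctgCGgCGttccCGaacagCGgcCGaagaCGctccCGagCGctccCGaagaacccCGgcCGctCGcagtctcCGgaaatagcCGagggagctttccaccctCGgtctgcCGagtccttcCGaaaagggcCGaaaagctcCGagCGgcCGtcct

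The Paip1 region (chr2:53255666-53255915, plus strand) holds 10 CG and is 49.6% G or C, and the Eif4g3 region (chr5:155481128-155481377, plus strand) holds 29 and is 65.6%. The medians were 17.5 CG and 59.4% over the 58 matched genes, and 6 CG and 52% over all 27457 rat promoters. TGTTCT, the core of a glucocorticoid or androgen receptor binding site, was searched on both strands of the 250 bases. It is in neither region, in 4 of the 58 genes (6.9%: Eef1e1, Eif3a, Eif3l and Paip2) and in 17.1% of all promoters. TGATGNAA, the letters of the site bound by ATF4 with C/EBP partners, is in 1 of 58 (1.72%, Eif2s2) and in 3.27% of all promoters. These are letters in a window, not binding sites.

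Other genes of protein synthesis were counted from lists without the genes above. These lists were chosen with earlier results of these data known. Of 21 cytosolic aminoacyl-tRNA synthetases, 19 lay above vehicle under dexamethasone (median 0.28), where 51.2% of all probe sets did, 9 without overlap (12.5% of all) and 0 past the threshold by limma. Of the 21, 5 lay above dexamethasone alone with testosterone added (median -0.12). Of 23 termination, recycling and poly(A) genes 17 lay above vehicle (median 0.17, 0 past), and of 9 mitochondrial translation factors 7 did (median 0.21, 0 past). Of 27 genes of mTORC1 and translation control, 3 rose past the threshold (0.569% of all probe sets) and 0 fell (0.483% of all). The 3 were Ddit4, an inhibitor of mTORC1 (3.25 ± 0.42, adjusted p = 0.0206), Eif4ebp1, and Sesn1, which restrains mTORC1 (1.18 ± 0.19, adjusted p = 0.0324). Of 14 integrated stress response genes 1 rose past the threshold (0.569% of all), Chac1, which breaks down glutathione (3.49 ± 0.46, adjusted p = 0.0206). With testosterone added, and against vehicle with both hormones, 0 genes of these lists passed.

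Markers of other cell types were also read. Summed log2 signals of 9 fibroblast markers were 13.68 to 15.04 with both hormones, 12.20 to 14.03 with dexamethasone and 14.79 to 15.42 with vehicle. All 8 tested had a lower mean under dexamethasone than vehicle (median -2.27). Of these, 7 were lower without overlap (10.4% of all probe sets) and 1, the microfibril gene Mfap5, was past the threshold (0.483% of all). Sums of 5 endothelial markers were 10.80 to 10.87 with both hormones, 10.74 to 11.05 with dexamethasone and 11.22 to 11.45 with vehicle. Under dexamethasone 0 of 5 passed by limma, with a median of -0.63 against vehicle and 2 lower without overlap (10.4% of all). Dexamethasone minus vehicle medians were -1.11 for 2 erythroid markers (1 lower without overlap, 10.4% of all) and -0.58 for 5 of macrophages (1 higher without overlap, 12.5% of all). They were -0.30 for 2 of nerve, -0.11 for 4 of smooth muscle, -0.01 for 3 of adipocytes and 0.11 for 1 of satellite cells. In these 6 lists 0 were past the threshold by limma. The ninth fibroblast marker, Fbln1, did not pass the filter on low signal. The part of these cells in the differences of the translation factors was not tested.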

How the data were processed

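The deposited table holds linear intensities, a single signal per probe set, on an Affymetrix rat expression array for each of 9 animals. Per the labels' protocols, total RNA was extracted with phenol and chloroform, cleaned on columns and labelled with biotin. The algorithm by which the authors made the signals is not given in the sources used here, and the deposited trimmed means differ between arrays (111.7 to 204.7 in 4 arrays, 490.2 to 496.3 in 5), so a common scale had to be set.

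After 57 controls were left out, log2(intensity + 16) was quantile normalized and fitted with limma 3.58.1 (lmFit and eBayes, a mean per group, all 9 arrays) in R 4.3.3. Probe sets below the 40th percentile of mean signal were left out, which left 18625 of 31042. P-values were adjusted by Benjamini-Hochberg within each comparison over all of these, with a threshold of 0.05. On simulated data for dexamethasone against vehicle, the same fit over 18625 probe sets recovered 61 of 100 log2 changes of 1.5 and 95 of 100 of 3, with 5 false calls. The deposited medians ran from 25.8 to 132.1 and the normalized arrays correlated at 0.876 to 0.973 across probe sets. The number of arrays limits the precision.

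Gene symbols come from the platform annotation. The brightest probe set, by mean log2 signal of all 9 arrays, stands for its gene. Genes are named with values if past the threshold, if on a list of 27 core factors (of which 23 are members), or if among the 5 largest rises or falls without overlap in a comparison, which gives 34. Other members are named to complete their role, and Eif5b for the figure of differences by role was chosen after its values were seen. The members and lists were chosen with earlier results of these data known. Same-numbered animals are not paired in the labels, and their deviations from the group means correlated at -0.20 to 0.59, so the replicate number is used only as an alternative. Starts and upstream regions are from RefSeq, GRCr8 (Python 3.11.15, pandas 2.3.3). Alternatives were other pseudocounts, scalings, filters and variance models, the replicate number or batch as a block, and arrays left out.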

Additional observations from a re-analysis of the deposited data

How the results depend on the processing

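The signs of the called values (Paip1 in both comparisons, Eif4g3 under dexamethasone) held in all 21 alternatives. Of the 99 other named values, 43 changed sign in some alternative and 3 passed in some. In dexamethasone against vehicle, where 2 member probe sets passed, 1 passed with a pseudocount of 1, with trimmed-mean scaling and with batch as a block, 4 with a pseudocount of 64, with robust variances that follow intensity and without the batch C arrays, and 5 with the filter at the 60th percentile. With no filter 0 passed (13 at an unadjusted p under 0.05, limma). With the replicate block, which the labels do not support as a pairing, 0 passed (17 unadjusted). Leaving out 1 array gave 0 to 2. The members' median difference of 0.07 was 0.16 with batch as a block, 0.17 without batch C, and 0.035 to 0.17 with 1 array left out (0.17 without dexamethasone replicate 3).

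In both hormones against dexamethasone, where 1 passed, 0 passed with a pseudocount of 1, no filter, the 2 groups alone, the replicate block or without batch C (10 to 13 unadjusted, limma), 2 with a pseudocount of 64 or the 60th percentile, and 3 with robust variances that follow intensity. Leaving out 1 array gave 0 to 1. The median of -0.08 was -0.16 without batch C and -0.15 to -0.032 with 1 array left out. In both hormones against vehicle 0 passed in every alternative. Higher filters test fewer probe sets. The cause of the other moves was not tested. Dim probe sets near the background limit what can be read from the second sets of a gene.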
